A study of Homo sapiens with 16 samples.

Results

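Amino acid and GABA transporter genes were followed while H9 cells (an established line of human embryonic stem cells) were driven toward endoderm with activin A, a ligand of the nodal pathway. The genes are those of the solute carrier families SLC1, SLC3, SLC6, SLC7, SLC36, SLC38 and SLC43, taken by symbol. This choice was made with earlier results of these data known. Of 18421 genes on the array, 57 belonged to these families, and a gene with more than 1 probe set was read from the brightest. Undifferentiated cells, called day 0, were set beside cells after 1, 3 and 5 days with activin A. Biological samples numbered 4 for day 0, 3 for day 1, 3 for day 3 and 4 for day 5, all of passage 40 to 50. Nothing in the labels says that these came from separate cultures, so p-values measure the spread between these samples. Treated cells were in RPMI with activin A at 100 ng/ml and fetal bovine serum stepped through 0%, 0.2% and 2%. Cells of day 0 were kept on mouse embryonic fibroblast feeders, or on Matrigel in medium conditioned by such fibroblasts, with basic FGF at 8 ng/ml, serum replacement, 1 mM glutamine and 0.1 mM nonessential amino acids. Activin, basic FGF, basal medium and its conditioning by fibroblasts, serum and the supplied amino acids therefore changed together. Their effects on transporter genes cannot be told apart. Whether feeder cells or the growth surface also differed between day 0 and treated cells was not tested. Serum was also stepped during treatment, so among the treated days it cannot be told apart from time.

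These carriers set how amino acids enter, leave and move within a cell. SLC1 proteins concentrate glutamate and exchange neutral amino acids, SLC6 proteins use sodium and chloride to take up GABA, taurine, glycine and other amino acids, and the SLC7 light chains reach the surface only when bound to an SLC3 heavy chain. SLC36 and SLC38 members work at the surface and at the lysosome, where some of them feed amino acid signals to the growth kinase mTORC1. SLC7A11 imports cystine for glutathione synthesis and releases glutamate, and SLC6A11 (GAT3) clears GABA from the space around cells.

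A probe set with a single symbol was found for 53 of the 57. The other 4 lay on probe sets that carry several symbols, so they are counted but no value is given for them. SLC1A5 and SLC7A14 each had a second probe set of their own. By mean level over all samples, 17 of the 57 were among the dimmest 25% of probe sets (mean log2 intensity under 5.83), where a change on the log scale is least certain. Values below are log2(intensity + 1), and differences are on that scale with standard errors (SE) from limma.

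The labelled identities were checked against marker genes. All 7 endoderm markers measured, SOX17, FOXA2, CXCR4, GATA6, GATA4, CER1 and EOMES, rose at day 5 against day 0, with a median difference of 4.88. Of 8 stem cell markers, 4 fell at day 5, with a median difference of -0.98. Among markers of other cell types, 1 of 7 fibroblast genes (LUM, 4.57 higher), 3 of 6 neural genes, 2 of 4 mesoderm genes (HAND1 higher, KDR lower) and 0 of 4 trophoblast genes (1 at an unadjusted p under 0.05) passed at day 5 by limma. The library labelled day 3 replicate 2 stood apart: its mean level over the endoderm markers was 7.46, against 11.76 and 12.03 in the other day 3 samples, and its median correlation with them was 0.829. That level lies within the range of the day 0 samples (6.84 to 8.24). Over the 8 stem cell markers day 3 replicate 2 had a mean of 11.56. The other day 3 samples had 11.19 and 11.29, and the day 0 samples 12.26 to 12.55. Whether the label is right was not tested. Day 5 replicate 2 had a median correlation of 0.858 with its group, and the other samples lay between 0.901 and 0.962. For that reason results that turn on day 3 replicate 2 are given with and without it.

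At day 5, 5 of the 57 transporter genes passed the test against day 0 (limma, Benjamini-Hochberg adjusted p under 0.05 over 18495 probe sets), and over all probe sets 5.46% passed. The glutamate carriers SLC1A1 and SLC1A2 and the lysosomal SLC7A14 rose (3 genes, against 2.56% of probe sets that rose). The purine carrier SLC43A3 and the GABA carrier SLC6A11 fell (2 genes, against 2.89% that fell). Of the 57 genes, 16 had day 5 and day 0 samples that did not overlap, 7 of them higher and 9 lower, against 14.6% of all probe sets, 6.07% higher and 8.57% lower. The median difference over the 57 was -0.12, against -0.02 over all probe sets. Of the 57, 21 were above 0 and 36 below, and of all 18495 probe sets 8943 were above and 9552 below. At an unadjusted p under 0.05, 19 of the 57 differed, against 17.2% of all probe sets.

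Whether a gene passed at day 5 depended on single libraries. Without day 0 replicate 1 none of the 57 passed, while 2.97% of all probe sets still did, and 17 of the 57 had an unadjusted p under 0.05 (14% of all probe sets). The differences themselves moved less. In that setting SLC1A1, SLC1A2, SLC7A14, SLC43A3 and SLC6A11 had 1.45, 1.18, 2.1, -1.33 and -2.81. With all samples they had 1.5, 1.21, 2.14, -1.41 and -3.06. Leaving out replicate 2, 3 or 4 of day 0 gave 3, 2 and 3 genes (3%, 3.82% and 3.63% of all probe sets), and leaving out day 5 replicate 1 gave 3 (3.45%), so calls over all probe sets fell as well. Without day 3 replicate 2, which enters this comparison only through the shared estimate of the spread, 11 passed (8.73% of all probe sets), 5 higher (4.07%) and 6 lower (4.66%). Without replicate 2 of days 3 and 5, a setting chosen after seeing the data, 12 passed, against 9.92% of all probe sets.

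**Figure D1:**
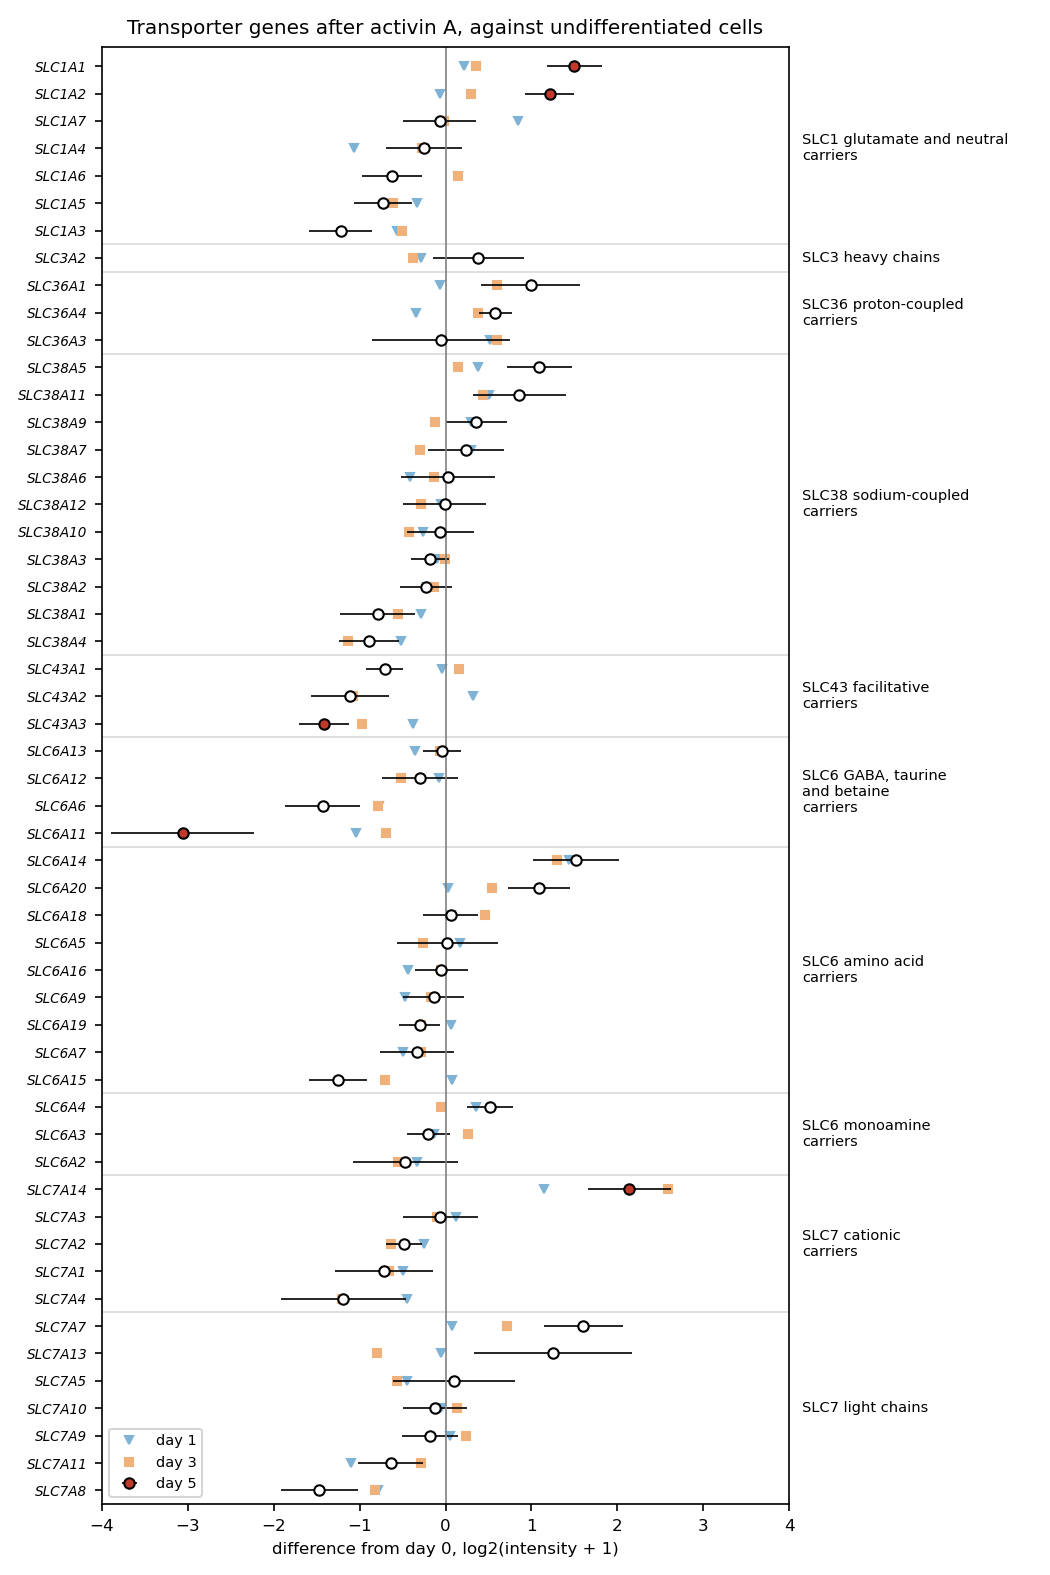
Difference from day 0 for the 53 transporter genes with a probe set of their own, on the log2(intensity + 1) scale, at day 1 (triangles), day 3 (squares) and day 5 (circles with SE bars), by carrier class. Filled circles mark the 5 genes past the day 5 test, SLC1A1, SLC1A2 and SLC7A14 to the right of 0 and SLC43A3 and SLC6A11 to the left.

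No transporter gene passed the test at earlier days with all samples kept. At day 1 against day 0 the limma count was 0 of 57 (0.00541% of all probe sets), with 4 at an unadjusted p under 0.05 (6.03% of all) and a median difference of -0.14. At day 3 against day 0 it was 0 of 57 (0.027% of all probe sets), with 7 at an unadjusted p under 0.05 (8.56% of all) and a median of -0.14. Day 3 against day 1 gave 0 of 57 (0.0324%) with 3 at an unadjusted p under 0.05 (8.62% of all), and day 5 against day 3 gave 0 of 57 (0.0973%) with 5 (5.99% of all). The moderated F test over all days called 1 transporter gene, SLC7A14 (adjusted p = 0.0329), and 3.73% of all probe sets. Without day 3 replicate 2 the F test called 8 of the 57 (8.2% of all probe sets): SLC1A1, SLC1A2, SLC7A14, SLC43A3, SLC7A7, SLC36A1, SLC36A4 and SLC6A15.

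Promoter sequence is shown for the 3 genes past the day 5 test that had an entry in the RefSeq promoter table (GRCh38.p14), as the 250 bases that end just before the annotated start, 5′ to 3′ on the gene's strand. Capitals mark GC boxes, GGGCGG on either strand (CCGCCC when read on the gene's strand). The windows are chr9:4490218-4490467 (plus strand) for SLC1A1, chr3:170586076-170586325 (minus strand) for SLC7A14 and chr3:10815978-10816227 (plus strand) for SLC6A11.
SLC1A1: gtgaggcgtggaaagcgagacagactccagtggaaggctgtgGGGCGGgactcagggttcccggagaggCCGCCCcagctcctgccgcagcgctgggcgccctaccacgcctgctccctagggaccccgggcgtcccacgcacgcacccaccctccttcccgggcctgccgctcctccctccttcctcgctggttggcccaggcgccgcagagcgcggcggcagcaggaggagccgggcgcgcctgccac
SLC7A14: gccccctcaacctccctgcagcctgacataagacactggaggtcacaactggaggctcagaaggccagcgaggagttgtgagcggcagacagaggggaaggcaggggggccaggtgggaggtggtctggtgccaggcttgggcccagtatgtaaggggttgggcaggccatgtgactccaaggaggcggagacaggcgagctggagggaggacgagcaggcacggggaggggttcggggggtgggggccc
SLC6A11: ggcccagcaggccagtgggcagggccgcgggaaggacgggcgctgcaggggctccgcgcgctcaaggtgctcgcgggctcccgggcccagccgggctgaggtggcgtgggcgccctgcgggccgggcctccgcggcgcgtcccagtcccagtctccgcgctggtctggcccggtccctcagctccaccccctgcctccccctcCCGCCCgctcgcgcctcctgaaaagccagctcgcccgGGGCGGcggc

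SLC1A1 and SLC6A11 each held 2 GC boxes and were 74.4% and 80.0% G or C, while SLC7A14 held none and was 66.8% G or C. Of the 57 genes, 43 had a window, and 28 of these (65.1%) held a GC box, against 42.6% of 35116 windows in the table. Their median G and C content was 64.0%, against 58.0% in the whole table. None of the 3 windows held the other motifs searched on both strands, each counted on its own: the ATF4 and C/EBP element TGATGNAA (2 of 43 genes, SLC1A3 and SLC1A5, and 3.14% of all windows), the antioxidant element TGACNNNGC (6 of 43, 10.9%), a FOXH1 core AATNNACA (5 of 43, 9.88%), a GATA core AGATAA (5 of 43, 9.17%), a T-box site GGTGTGA (3 of 43, 2.76%) and a SOX core AACAAT (3 of 43, 8.98%). A match describes letters in the window and not a bound site.

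Among the SLC1 carriers, 2 of 7 rose at day 5 (2.56% of all probe sets) and none fell (2.89%). Of the 7 differences 5 were below 0 (9552 of 18495 probe sets were), and the median of the 7 was -0.25. SLC1A1 (EAAT3) takes up glutamate and aspartate and can also carry cysteine. Its levels were 10.35, 10.06, 10.57 and 10.51 at day 5, against 8.73, 8.91, 8.89 and 8.96 at day 0. Every day 5 sample lay above every day 0 sample, by 1.5 ± 0.32 (SE; limma adjusted p = 0.0151), or 2.83-fold. At day 1 the levels were 8.96, 9.06 and 9.27, and at day 3 they were 9.56, 8.16 and 9.94. Day 3 replicate 2 was thus the lowest of all 14 samples, while the other day 3 samples lay between the day 1 and day 5 groups. The call at day 5 was lost without day 0 replicate 1 (adjusted p = 0.0527).

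SLC1A2 (EAAT2), the main glutamate carrier of astrocytes, was low throughout. It had 6.36, 6.45, 7.12 and 6.78 at day 5, against 5.38, 5.78, 5.41 and 5.30 at day 0. The groups did not overlap, and the difference was 1.21 ± 0.29 (adjusted p = 0.026, limma), or 2.32-fold. At day 1 it had 5.22, 5.75 and 5.21 and at day 3 it had 5.31, 6.51 and 5.50, so only day 3 replicate 2 reached the range of day 5. The call was lost without day 0 replicate 1, 3 or 4 or day 5 replicate 3 or 4 (adjusted p from 0.0613 to 0.081). SLC1A2 is itself one of 6 neural markers measured, of which PAX6 (4.34 higher), GAD1 and SLC1A2 rose at day 5. SOX1, GFAP and MAP2 did not pass (differences of 0.03, 0.36 and -0.53), and the mean level over the 6 ran from 5.97 to 6.34 at day 5 and from 4.82 to 5.16 at day 0. Their part in the result was not tested.

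The other glutamate carriers and the neutral exchangers did not pass at day 5. SLC1A3 (EAAT1), another glial glutamate carrier, had 7.13, 6.52, 6.64 and 6.77 at day 5, against 7.96, 8.14, 7.65 and 8.19 at day 0, a difference of -1.22 ± 0.37 (adjusted p = 0.0794, limma). The groups did not overlap, and without day 3 replicate 2 the adjusted p was 0.0484. SLC1A5 (ASCT2), the glutamine exchanger, had 11.00, 9.90, 11.41 and 11.38 at day 5, against 11.79, 11.51, 11.47 and 11.84 at day 0 (difference -0.73, adjusted p = 0.295). Its second probe set differed by -0.42 at day 5, with groups that overlapped, and by -1.27 at day 3 (adjusted p = 0.192). Thus both probe sets of SLC1A5 lay lower at day 5 than at day 0, and neither passed.

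SLC7A14, a lysosomal member of the cationic amino acid carrier branch, had the largest rise of the 57 genes at day 5. It stood at 9.0, 8.88, 8.94 and 8.59 at day 5, against 6.62, 6.48, 6.61 and 7.16 at day 0. The 4 day 5 samples lay within a narrow band above all day 0 samples, a difference of 2.14 ± 0.48 (adjusted p = 0.0204, limma), or 4.40-fold. Day 1 had 7.15, 8.47 and 7.96, and day 3 had 9.90, 7.67 and 10.37. Day 3 replicates 1 and 3 were the highest of all samples, while replicate 2 lay within the day 1 range. The day 5 call was lost without day 0 replicate 1, 2 or 3 or day 5 replicate 1 or 3, with adjusted p from 0.051 to 0.0663. The second probe set of SLC7A14 was dim and differed by 2.78 ± 1.47 at day 5 (adjusted p = 0.38), with groups that did not overlap and -0.46 in day 3 replicate 2.

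The remaining cationic carriers, which bring in arginine and lysine, did not pass. SLC7A1 (CAT1) had 10.07, 8.58, 10.92 and 11.45 at day 5, against 11.01, 10.75, 10.75 and 11.37 at day 0. The day 5 samples spread on both sides of the day 0 range, and the difference of -0.72 ± 0.57 had an adjusted p of 0.605 (limma). SLC7A3 (CAT3) differed by -0.06 ± 0.44 and SLC7A4, whose substrate is unsettled, by -1.19 ± 0.73, both with groups that overlapped.

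**Figure D2:**
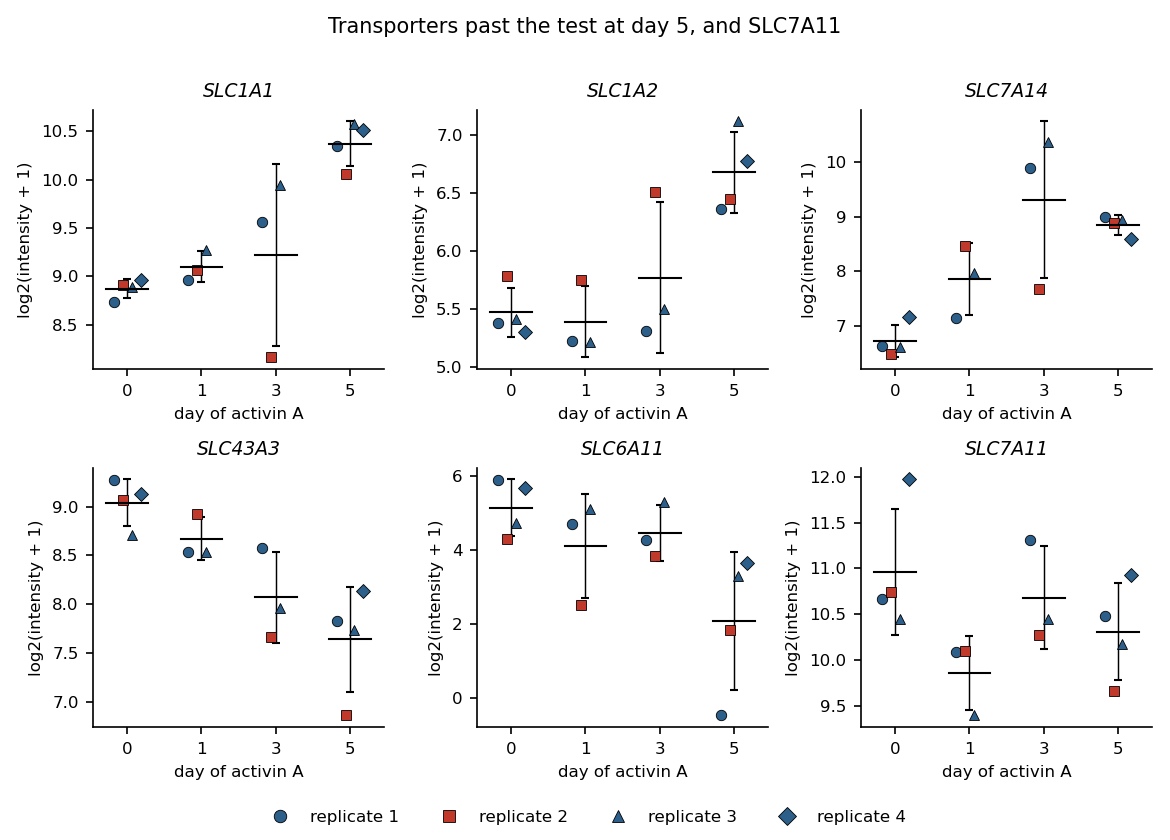
Level of the 5 transporter genes past the day 5 test and of SLC7A11 in each sample, log2(intensity + 1) by day of activin A; horizontal bars are group means, vertical bars SD, and red squares replicate 2. For the 5 called genes every day 5 sample lies on one side of every day 0 sample, while the SLC7A11 groups of days 5 and 0 overlap.

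The heavy chain SLC3A2 (CD98) and its light chain SLC7A5 (LAT1) form the carrier of large neutral amino acids that feeds mTORC1. SLC3A2 had 13.19, 11.72, 14.01 and 13.73 at day 5, against 12.85, 12.71, 12.56 and 12.99 at day 0. SLC7A5 had 13.47, 11.69, 14.41 and 14.28 at day 5, against 13.35, 13.00, 13.07 and 14.03 at day 0. In both genes replicate 2 was the lowest day 5 sample by over 1 log2 unit, and the differences of 0.38 ± 0.53 and 0.10 ± 0.71 were within the spread (limma adjusted p = 0.788 and 0.964). At day 3 SLC3A2 had 13.07, 11.07 and 13.06, and SLC7A5 had 13.65, 10.94 and 13.82. At day 1 SLC3A2 had 12.76, 11.80 and 12.93, and SLC7A5 had 13.28, 11.83 and 13.63. Replicate 2 was the lowest sample of its group at all 3 treated days in both genes. At day 0 it was the lowest in SLC7A5 but not in SLC3A2.

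The distance of replicate 2 from the mean of its group's other samples was measured for every member. For SLC3A2 it was -0.09, -1.04, -1.99 and -1.92 at days 0, 1, 3 and 5. For SLC7A5 it was -0.49, -1.63, -2.80 and -2.36 in the same order of days. SLC7A1 (-0.29, -1.26, -1.55 and -2.23) and the glutamine carrier SLC38A1 (-0.04, -0.90, -1.24 and -1.65) showed the same sign at every day. At the treated days the opposite sign appeared in SLC38A6 (-0.23, 1.00, 2.43 and 1.63) and in SLC38A9, the lysosomal arginine sensor of mTORC1 (0.03, 0.31, 1.72 and 0.75). SLC38A1, SLC38A6 and SLC38A9 were chosen after their values were seen. Over the 57 genes, day 3 replicate 2 was the lowest sample of its group in 33 (57.9%) and the highest in 20 (35.1%). Over all probe sets these shares were 44.8% and 46.4%, so its distance ran in both directions, but more often downward among the transporter genes. Day 0 replicate 2 was lowest in 36.8% and highest in 19.3% of the 57 (21.9% and 23.4% of all). Day 1 replicate 2 was lowest in 57.9% and highest in 28.1% of the 57 (42.1% and 41.7% of all). Day 5 replicate 2 was lowest in 52.6% and highest in 28.1% (39.0% and 38.7% of all). Leaving out replicate 2 of days 3 and 5 gave differences at day 5 of 0.86 ± 0.29 for SLC3A2 (limma adjusted p = 0.0922) and 0.69 ± 0.42 for SLC7A5 (adjusted p = 0.403). What sets the replicate 2 samples apart was not tested.

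**Figure D3:**
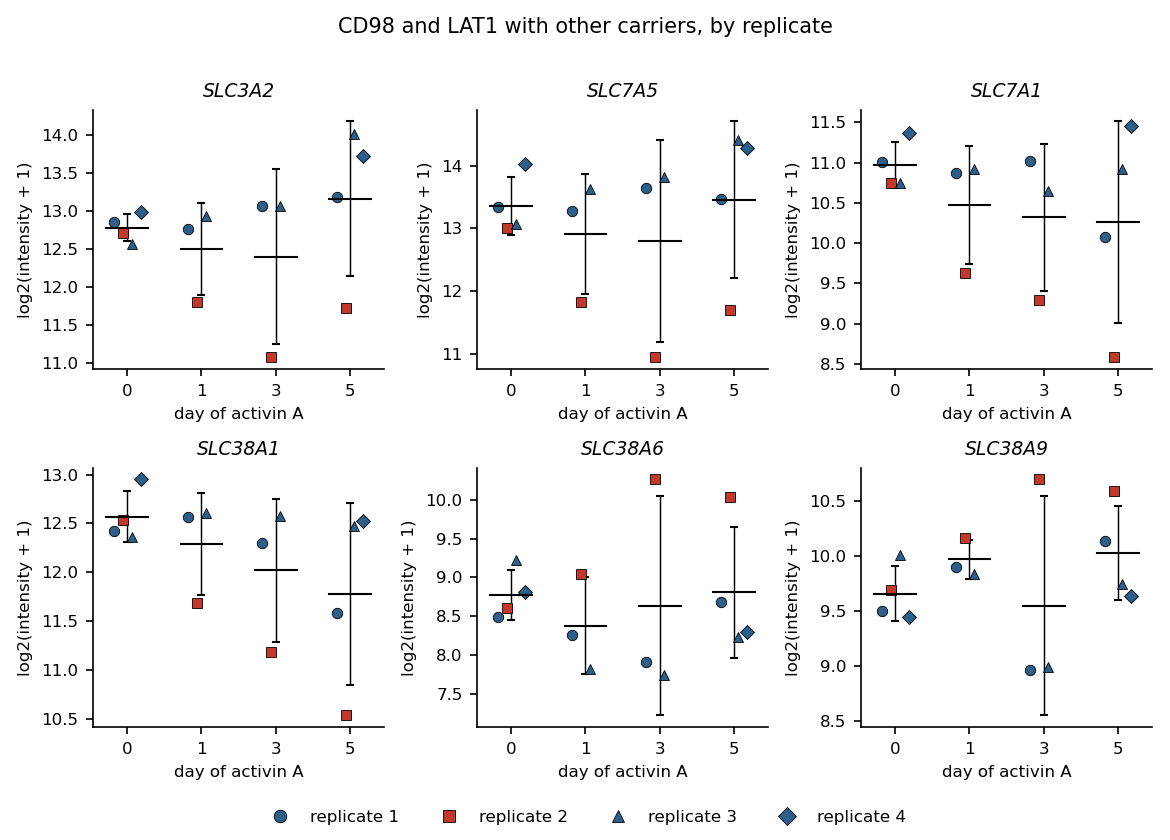
Level of SLC3A2 (CD98), SLC7A5 (LAT1), SLC7A1, SLC38A1, SLC38A6 and SLC38A9 in each sample, log2(intensity + 1) by day of activin A; horizontal bars are group means, vertical bars SD, and red squares replicate 2. In the first 4 genes replicate 2 is the lowest sample at days 1, 3 and 5, and in the last 2 it is the highest.

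None of the other light chains passed with all samples. SLC7A7 (y+LAT1), which exports cationic amino acids in exchange for neutral ones, had 8.68, 8.60, 9.61 and 9.24 at day 5, against 7.28, 7.46, 7.67 and 7.31 at day 0. All day 5 samples were higher, by 1.60 ± 0.46, with an adjusted p of 0.0657 (limma) and of 0.00311 without day 3 replicate 2. SLC7A8 (LAT2), a carrier of neutral amino acids, had 10.18, 8.38, 10.96 and 10.38 at day 5, against 11.66, 11.73, 11.22 and 11.15 at day 0. All day 5 samples were lower, by a difference of -1.47 ± 0.45 (adjusted p = 0.0831). At day 1 SLC7A8 had 10.93, 10.41 and 10.61, and at day 3 it had 10.96, 10.05 and 10.86, so it lay below every day 0 sample at all 3 treated days. SLC7A9, SLC7A10 and SLC7A13 differed by -0.18, -0.12 and 1.25 at day 5 and did not pass, and SLC7A13 was very dim (percentile 0.779 of mean level), with values from -0.46 to 4.66.

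SLC7A11 (xCT), the cystine and glutamate exchanger, did not pass any of the 5 comparisons. Its levels were 10.67, 10.74, 10.45 and 11.97 at day 0, 10.09, 10.10 and 9.40 at day 1, 11.31, 10.27 and 10.45 at day 3, and 10.48, 9.67, 10.18 and 10.93 at day 5. All day 1 samples lay below all day 0 samples and below all day 3 samples, and day 0 replicate 4 was the highest of the 14. The difference was -1.10 ± 0.42 at day 1 (adjusted p = 0.652), -0.28 ± 0.42 at day 3 (0.919) and -0.64 ± 0.38 at day 5 (0.455), each against day 0 by limma. Day 3 against day 1 gave 0.82 ± 0.44 (0.677) and day 5 against day 3 gave -0.37 ± 0.42 (0.999).

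Of the 5 GABA, taurine, creatine and betaine carriers of SLC6, 1 fell at day 5 (2.89% of all probe sets fell). All 5 differences were below 0 at each treated day. Of 18495 probe sets, 8737, 9496 and 9552 were below 0 at days 1, 3 and 5. SLC6A11 (GAT3), a GABA carrier of glia, had -0.46, 1.83, 3.31 and 3.65 at day 5, against 5.90, 4.29, 4.72 and 5.68 at day 0. Every day 5 sample was lower, by 3.06 ± 0.83 on the log2 scale (adjusted p = 0.0499, limma). At day 1 it had 4.71, 2.51 and 5.10 and at day 3 it had 4.26, 3.83 and 5.29, with differences from day 0 of -1.04 ± 0.90 and -0.69 ± 0.90 that did not pass. SLC6A11 was dim, at percentile 3.29 of mean level over all probe sets, and its day 5 replicate 1 value came from an intensity below 0. Its size depends on the pseudocount: with 16 added in place of 1 the difference was -1.28 ± 0.34 (adjusted p = 0.0397). The call was lost in 10 of the 14 settings that leave out 1 sample, with adjusted p from 0.0582 to 0.149, the highest without day 0 replicate 1. The smallest fall of the 14 settings, -2.22 (limma adjusted p = 0.11), came without day 5 replicate 1. In RNA from whole cultures, fewer cells that express a gene and less RNA per cell cannot be told apart.

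Day 5 minus day 3 for SLC6A11 was -2.38 ± 0.90 (adjusted p = 0.649), and day 3 minus day 1 was 0.35 ± 0.96. The taurine carrier SLC6A6 had 9.47, 8.18, 10.15 and 10.20 at day 5, against 11.01, 10.89, 10.77 and 11.05 at day 0. No samples overlapped, and the difference of -1.43 ± 0.44 had an adjusted p of 0.0854 (limma), or 0.0451 without day 3 replicate 2. At day 1 SLC6A6 had 10.10, 9.68 and 10.68, also below every day 0 sample. The betaine and GABA carrier SLC6A12 (BGT1) and the GABA carrier SLC6A13 (GAT2) differed at day 5 by -0.30 ± 0.44 and -0.04 ± 0.22, with groups that overlapped.

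None of the 9 amino acid carriers of SLC6 passed in the limma fit of all samples by group alone. SLC6A15, a carrier of branched-chain amino acids and proline, had 9.28, 9.87, 8.70 and 8.90 at day 5, against 10.32, 10.29, 10.46 and 10.66 at day 0. All day 5 samples were lower, with a difference of -1.25 ± 0.34 and an adjusted p of 0.0532 (limma). At day 3 SLC6A15 had 9.06, 10.66 and 9.46, and replicate 2 alone lay with the day 0 samples. SLC6A14, which takes up neutral and cationic amino acids, had 5.53, 4.99, 4.12 and 3.63 at day 5, against 3.16, 3.18, 3.23 and 2.62 at day 0. The day 1 samples of SLC6A14, at 4.64, 4.83 and 4.02, were likewise all above day 0, with differences of 1.44 ± 0.54 at day 1 (adjusted p = 0.648) and 1.52 ± 0.50 at day 5 (adjusted p = 0.112). SLC6A14 too was dim, at percentile 4.31 of mean level. SLC6A20, a proline and imino acid carrier, differed by 1.09 ± 0.36 at day 5 (adjusted p = 0.104), and its groups overlapped. The monoamine carriers SLC6A2, SLC6A3 and SLC6A4, for noradrenaline, dopamine and serotonin, differed by -0.47, -0.20 and 0.52 at day 5, and none of the 3 passed.

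Of the 3 SLC43 carriers 1 fell at day 5 (2.89% of all probe sets fell). All 3 differences were below 0, as were 9552 of 18495 probe sets. SLC43A3, known as a carrier of purine nucleobases rather than of amino acids, had 7.83, 6.86, 7.73 and 8.13 at day 5, against 9.27, 9.07, 8.71 and 9.13 at day 0. All day 5 samples were lower, a difference of -1.41 ± 0.29 (adjusted p = 0.0137, limma), or 2.65-fold. SLC43A3 had 8.54, 8.93 and 8.54 at day 1 and 8.58, 7.66 and 7.96 at day 3, and every day 3 sample was below every day 0 sample. Without day 0 replicate 1 the adjusted p at day 5 was 0.0521. SLC43A1 (LAT3), a leucine carrier, had 8.00, 8.73, 8.25 and 8.23 at day 5, against 8.94, 8.99, 8.96 and 9.16 at day 0. Its groups did not overlap (difference -0.71 ± 0.21, adjusted p = 0.0671), and without day 3 replicate 2 the adjusted p was 0.0395. SLC43A2 (LAT4) differed by -1.11 ± 0.45 (adjusted p = 0.212), with overlap at day 5, while all 3 day 3 samples (7.58, 6.71 and 7.83) lay below all day 1 samples (8.78, 8.64 and 8.93).

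Neither the 4 proton-coupled SLC36 genes nor the 11 sodium-coupled SLC38 genes held a call at day 5. SLC36A1 (PAT1), which moves small amino acids out of lysosomes and across the surface, had 8.53, 8.55, 9.52 and 9.35 at day 5, against 8.14, 7.93, 7.76 and 8.16 at day 0. All day 5 samples were higher, but the difference of 0.99 ± 0.58 had an adjusted p of 0.446 (limma). Without day 3 replicate 2 the same difference had an SE of 0.29 and an adjusted p of 0.0554. SLC36A4 (PAT4), a carrier of proline and tryptophan, had 10.03, 9.88, 10.08 and 9.89 at day 5, against 9.19, 9.45, 9.44 and 9.47 at day 0 (difference 0.58 ± 0.19, adjusted p = 0.109). It was higher in every day 3 sample too, at 9.54, 9.72 and 10.05, and without day 3 replicate 2 it passed the F test over days (adjusted p = 0.0397). SLC38A5 (SNAT5) differed by 1.09 ± 0.38 at day 5 (adjusted p = 0.133), SLC38A4 (SNAT4, known in liver) by -0.89 ± 0.35 (adjusted p = 0.198), SLC38A11 by 0.86 ± 0.54 and SLC38A2 (SNAT2, which amino acid lack induces) by -0.23 ± 0.30. The SLC38 median at day 5 was -0.01, with 5 of 11 above 0 (8943 of 18495 probe sets were).

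At the earlier days some genes separated without passing. At day 1, 7 of the 57 had samples that did not overlap day 0, against 11.5% of all probe sets: SLC1A1 and SLC6A14 were higher, and SLC1A4, SLC6A6, SLC6A13, SLC7A8 and SLC7A11 were lower. SLC1A4 (ASCT1), a neutral amino acid exchanger named after its values were seen, had 6.77, 6.61 and 6.57 at day 1, against 7.42, 7.44, 7.23 and 8.80 at day 0 (difference -1.07 ± 0.47, limma adjusted p = 0.797). At day 3, 9 did not overlap day 0, against 9.82% of all probe sets, with SLC7A14 and SLC36A4 higher and 7 lower. Between days 3 and 1, 4 did not overlap (12.6% of all), and SLC1A4, SLC7A11 and SLC36A4 were higher at day 3 while SLC43A2 was lower. Between days 5 and 3, 3 did not overlap (4.98% of all), with SLC1A1 higher and SLC43A1 and SLC6A11 lower at day 5.

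Leaving out day 3 replicate 2 brought transporter genes past the test at day 3. Then 3 rose against day 0, where 2.05% of all probe sets rose, and none fell. SLC7A14 differed by 3.42 ± 0.34 (limma adjusted p = 0.000316), SLC36A1 by 1.65 ± 0.36 (0.0259) and SLC7A7 by 1.49 ± 0.34 (0.0333). With all 3 day 3 samples the same differences were 2.59, 0.60 and 0.72. SLC36A1 had 9.46, 6.49 and 9.84 at day 3 and SLC7A7 had 8.58, 6.59 and 9.27, so replicate 2 was below all day 0 samples in both genes and the other samples were above all of them. Against day 1, SLC7A14 (2.27 ± 0.36, 0.00714) and SLC36A1 (1.71 ± 0.37, 0.0333) were higher at day 3, where 1.89% of all probe sets rose.

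With that library left out, 6 more genes passed at day 5 than the 5 above. SLC7A7 (adjusted p = 0.00311, limma) and SLC6A14 (0.0401) rose, and SLC6A15 (0.00968), SLC43A1 (0.0395), SLC6A6 (0.0451) and SLC1A3 (0.0484) fell. Their differences at day 5 are those given above, since the omitted sample belongs to day 3, and only the estimate of the spread changed. The 5 genes called with all samples were called here too.

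**Figure D4:**
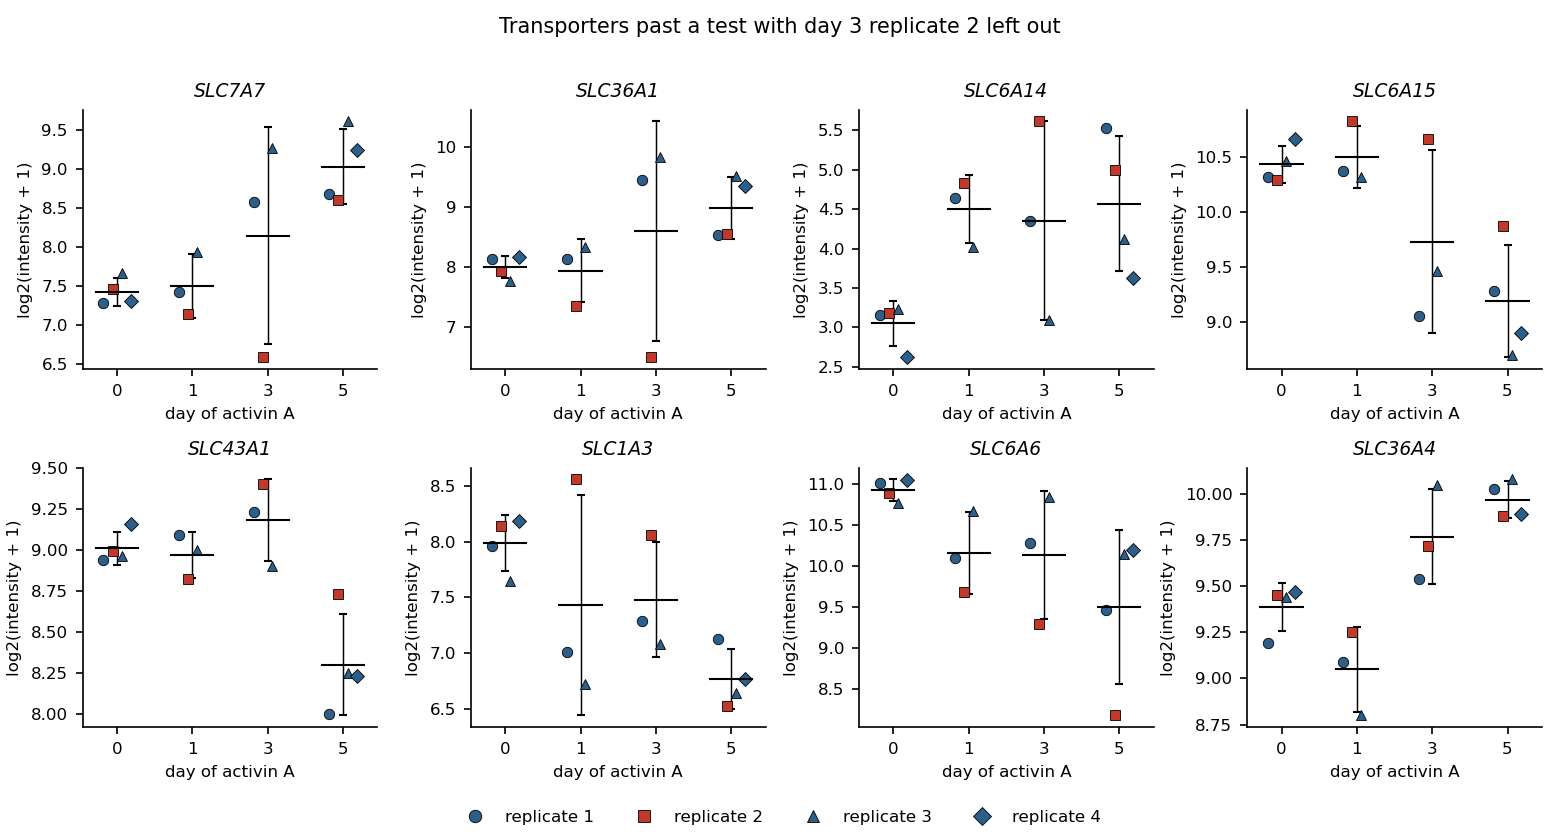
Level in each sample of the 8 further transporter genes past a test once day 3 replicate 2 is left out, log2(intensity + 1) by day of activin A; horizontal bars are group means, vertical bars SD, and red squares replicate 2. At day 3 replicate 2 lies far below the other samples in SLC7A7 and SLC36A1 and above them in SLC6A14, SLC6A15, SLC43A1 and SLC1A3, while in SLC36A4, past the F test only, it lies between them.

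Genes that work with these carriers were counted in 4 lists, none of which had a call at day 1 or day 3 with all samples. Of 22 measured genes under ATF4, the transcription factor of the amino acid response, or of serine, asparagine and glycine synthesis, none passed at day 5 by limma (5.46% of all probe sets). At an unadjusted p under 0.05, 6 of the 22 differed (17.2% of all probe sets), and the median difference was -0.06. The stress factor DDIT3 (1.66, adjusted p = 0.0643) and the lipoprotein receptor VLDLR (1.20, 0.151) had the largest differences. Without day 3 replicate 2, 3 of the 22 passed at day 5 by limma (8.73% of all probe sets). DDIT3 (adjusted p = 0.0395) and VLDLR (0.0456) rose and PHGDH, the first enzyme of serine synthesis, fell (-0.82 ± 0.22, 0.0348). In that setting WARS1, the tryptophan tRNA ligase, was higher at day 3 than at day 1 (1.43 ± 0.34, 0.0474). Of 14 genes of glutathione and cystine use, 2 fell at day 5 (2.89% of all probe sets) and none rose (2.56%), with a median of -0.63. KEAP1, which holds back the antioxidant factor NRF2, had 8.30, 8.05, 8.79 and 8.55 at day 5, against 9.83, 9.52, 9.60 and 9.12 at day 0 (difference -1.10 ± 0.23, adjusted p = 0.0122). GCLM, a subunit of the first enzyme of glutathione synthesis, had 7.78, 7.75, 7.56 and 7.45 at day 5, against 8.47, 8.54, 8.61 and 8.78 at day 0 (difference -0.97 ± 0.23, adjusted p = 0.0239). Without day 3 replicate 2 GCLC, the other subunit, fell as well (-0.66 ± 0.19, adjusted p = 0.0456, limma).

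Of 19 measured genes of GABA synthesis, breakdown and receptors, 3 rose and 1 fell at day 5, with a median of -0.09. Over all probe sets 2.56% rose and 2.89% fell. The receptor subunit GABRA4 had 7.05, 7.0, 7.36 and 7.67 at day 5, against 4.70, 4.51, 5.15 and 4.46 at day 0, a difference of 2.57 ± 0.23 (adjusted p = 0.00023, limma). GABRB2, another subunit, differed by 2.75 ± 0.60 (0.0177) and GABRQ by -1.24 ± 0.32 (0.0399). GAD1, which makes GABA from glutamate, had 7.28, 7.04, 7.12 and 7.30 at day 5, against 6.16, 5.91, 5.60 and 5.71 at day 0, a difference of 1.34 ± 0.33 (0.0304). At day 1 GAD1 already had 7.21, 6.98 and 7.88, all above day 0, and it passed there only without day 3 replicate 2 (1.51 ± 0.24, adjusted p = 0.0261), where 0.249% of all probe sets passed. In that setting 5 of the 19 rose at day 3 against day 0 (2.05% of all probe sets) and none fell (1.14%). The 5 were GAD1 (1.83 ± 0.27), GABRB2 (2.89 ± 0.43), GABRE (1.67 ± 0.40), GABRA4 (1.17 ± 0.28) and the GABA-B subunit GABBR2 (1.19 ± 0.28), with limma adjusted p from 0.00301 to 0.0426. GABBR2 was also higher at day 3 than at day 1 (1.22 ± 0.29, 0.0489). PHGDH, WARS1, GCLC, GABRE, GABBR2 and WDR59 are named after their values were seen. Of 27 genes of amino acid sensing by mTORC1, 1 rose at day 5 (2.56% of all probe sets) and none fell (2.89%), with a median of -0.07. It was RRAGB, a GTPase that recruits mTORC1 to the lysosome, with 9.20, 9.73, 8.50 and 8.65 at day 5, against 6.91, 7.69, 7.61 and 7.26 at day 0 (difference 1.65 ± 0.33, adjusted p = 0.0103). Without day 3 replicate 2 WDR59, a subunit of the GATOR2 complex, fell as well (-0.62 ± 0.17, adjusted p = 0.0361).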

How the data were processed

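RNA from H9 cells was depleted of ribosomal RNA, amplified and hybridised to 16 Human Exon 1.0 ST arrays, per the labels' protocols. Each deposited value is the intensity of a gene's probe set, not log-transformed, and the submitters' processing notes name the build hg18. How probes were summarised and normalized is not given in these sources. The table held 18495 probe sets, with array medians from 245.1 to 246.3 and 636 values below 0. Precision is limited by how many arrays there are. Probe sets were named from the platform annotation: 14577 carried 1 symbol, 2849 several and 1069 none.

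A pseudocount of 1 was added before log2, and the paired technical arrays of replicate 4 of days 0 and 5 (correlations 0.981 and 0.975) were averaged, which left 14 samples. All probe sets were fitted with group as the only term in limma 3.58.1 (lmFit and eBayes, R 4.3.3), with 10 residual degrees of freedom. The two-sided p-values were adjusted by Benjamini-Hochberg over all probe sets, at a threshold of 0.05. The limma code was tested on simulated data. The members, gene lists and motifs were chosen with earlier results of these data known, and p-values were never adjusted over a list alone. Genes named with values are the markers SLC7A11 and SLC6A11, the members past a test, the 3 largest day 5 differences and the brightest member of each class, and the heavy and light chains. From each pathway list come up to 4 genes that passed, or failing that the 2 with the biggest difference. Other genes named were chosen after their values were seen. SLC3A1, SLC7A6, SLC6A8 and SLC36A2 share probe sets with other symbols.

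Replicate numbers recur across days. For days 1 and 3, same-numbered samples deviated together in replicates 2 and 3 (correlations 0.509 and 0.365). For replicate 1 the correlation was 0.188, below the 0.416 of day 3 replicate 1 with a day 1 sample of another number. For days 3 and 5 the correlations were -0.143, 0.645 and 0.561 in replicates 1, 2 and 3. The highest with a day 3 sample of another number were 0.235, -0.543 and 0.511. For days 0 and 5 the same-numbered correlations were -0.063, 0.118, -0.284 and 0.512 in replicates 1 to 4. The highest with a day 0 sample of another number were 0.185, 0.335, 0.380 and 0.028. Same-numbered samples of day 0 and the treated days did not deviate together in every pair, so the replicate block is an alternative. The other alternatives kept all 16 arrays (samples as random block), used either technical array alone, fitted only the groups compared, centred on medians or normalized by quantiles, dropped the dimmest 25% or 50% of probe sets, or used a pseudocount of 16, robust eBayes with a variance trend, or array weights (estimated gene by gene, since the default estimate did not converge). Members on their own probe sets, a 2-fold minimum and leaving out each sample were also tried. Promoter windows came from RefSeq (GRCh38.p14). Tables were made with pandas 2.3.3 in Python 3.11.15 and figures with matplotlib 3.10.9.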

Additional observations from a re-analysis of the deposited data

Results flagged for a closer look

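Within the groups of 4, the highest or lowest sample was set against the others by Dixon's test for 70 gene and group pairs. Chance flags about 1 in 20 such groups, and 4 of the 70 stood out, all at day 0. SLC36A3, a dim gene, had 6.08 in day 0 replicate 3, against 4.21 to 4.51 in the other day 0 samples. SLC36A4 had 9.19 in day 0 replicate 1, below the 9.44 to 9.47 of the others. SLC6A14 had 2.62 in day 0 replicate 4, below 3.16 to 3.23. SLC6A2 had 5.94 in day 0 replicate 2, above 5.31 to 5.41.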

How the results depend on the processing

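Counts of transporter genes past the test changed most with array weights and with the samples kept. At day 5 against day 0, where all samples gave 5, the count was 11 with a replicate block (7.83% of all probe sets), 18 with array weights (15.9%), 0 to 11 when 1 sample was left out and 12 without replicate 2 of days 3 and 5. The block added SLC7A7 and SLC6A14 (higher) and SLC6A15, SLC6A6, SLC1A3 and SLC38A4 (lower), with adjusted p from 0.0221 to 0.0448. At day 1 against day 0 (0 genes) array weights gave 2 (4.76% of all). At day 3 against day 0 (0 genes) array weights gave 8 (12.7% of all), leaving out 1 sample 0 to 3 and leaving out replicate 2 of days 3 and 5 gave 5 (5.72%). For day 3 against day 1 (0 genes) these were 10 (19.2%), 0 to 2 and 5 (6.37%), and for day 5 against day 3 (0 genes) array weights gave 4 (2.78%). The F test (1 gene, 3.73% of all) gave 3 with all 16 arrays (3.94%), with technical array 2 alone (3.72%) and with the variance trend (4.03%). It gave 2 with the replicate block (4.64%) and 4 with a pseudocount of 16 (4.36%). Without the dimmest 25% and 50% of probe sets it gave 5 of 40 (5.76%) and 4 of 29 (5.5%). Array weights gave 20 (27.6%), leaving out 1 sample 0 to 8, and leaving out replicate 2 of days 3 and 5 gave 10 (11.5%). The replicate block moved no count for the other comparisons. Quantile normalization and median centring left the counts at 5 for day 5 and moved no median by over 0.1. The causes were not tested.

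Among single genes, 29 alternatives reversed a sign, all of differences that did not pass with all samples, while 26 lost a call and 64 gained one. At day 5 SLC36A3 (-0.05) became 0.47 with technical array 1 alone, 0.07 with a pseudocount of 16 and -0.60 to 0.39 with a sample left out. Array weights gave 0.01 for SLC38A2, 0.02 for SLC7A1 and 0.21 for SLC7A3. Leaving out 1 sample gave -0.74 to 0.01 for SLC6A2, -0.47 to 0.06 for SLC7A10, -0.23 to 0.23 for SLC7A3, -0.29 to 0.00 for SLC7A9 and -0.21 to 0.69 for SLC7A5. Without replicate 2 of days 3 and 5 SLC7A3 was 0.23 and SLC7A9 0.00. At day 3 leaving out 1 sample gave -0.01 to 0.88 for SLC1A1, -0.02 to 1.65 for SLC36A1, -0.60 to 0.06 for SLC7A11 and -0.06 to 0.54 for SLC1A2, which was -0.06 without replicate 2 of days 3 and 5 and -0.07 with array weights. SLC7A11 was 0.03 at day 3 with array weights. Between days 3 and 1, SLC6A11 was -0.45 to 0.85 with a sample left out.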
